A study of Mus musculus with 6 samples.

Results

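The transcription factors that set gastric and intestinal identity were followed in the corpus of the mouse stomach, the gland-rich body of the organ that makes acid and pepsinogen. They were 9 genes taken by name (Cdx1, Cdx2, Sox2, Gata4, Gata6, Foxa2, Hnf4a, Pdx1 and Onecut2) out of 18988 rows of a table of expression values, and each was found on 1 row. RNA was sequenced from 6 mice of a C57BL/6 background, with 1 mouse per library. The controls were 3 mice of genotype Ras;APC FF (replicates 1 to 3), and 3 mice carried PGC;Ras;APC FF (replicates 4 to 6), so that Ras and APC FF were shared by both groups and PGC was what differed. The labels do not spell out PGC, Ras or FF, name no driver of recombination and give no age, sex, induction or time point. Whole corpus tissue was extracted, so a value is a mean over all its cells, and fewer cells of a type and less RNA per cell cannot be told apart. Expression is given as FPKM (fragments scaled to gene length and to the library's mapped total), which allows levels to be compared between genes.

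Regional identity along the gut is held by combinations of DNA-binding factors. Gata4, Gata6, Foxa2 and Hnf4a act in endoderm-derived epithelium from stomach to intestine, Sox2 marks the foregut and its stomach epithelium, and Pdx1 marks the antrum, duodenum and pancreas. Cdx1 and Cdx2 are the caudal-type homeobox factors of the intestine, whose appearance in the stomach accompanies intestinal metaplasia. Onecut2 belongs to a small family of factors with a cut domain and a homeodomain.

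The corpus of both genotypes held the shared endodermal factors at high levels and the intestinal Cdx factors at almost none. None of the 5 members that were tested between genotypes by linear model passed. The other 4 reached 1 FPKM in too few libraries for that test. Sox2 averaged 3.86 ± 1.34 FPKM without PGC and 11.2 ± 7.30 with it, and Hnf4a averaged 26.9 ± 3.21 and 38.0 ± 4.21 (SD, n = 3 each). Onecut2 was at 0.02 to 0.03 FPKM in the controls and at 0.56, 0.20 and 5.96 in replicates 4, 5 and 6. Cdx1 and Cdx2 did not exceed 0.16 and 0.10 FPKM in any of the 6 libraries.

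The test was a linear model on log2(FPKM + 1) fitted with limma over 11857 genes that reached 1 FPKM in at least 3 libraries, with Benjamini-Hochberg adjustment over all of them and a threshold of 0.05. Of the 9 members 5 were tested (Gata4, Gata6, Foxa2, Hnf4a and Sox2), and 4 lay below the filter (Cdx1, Cdx2, Pdx1 and Onecut2). At the adjusted threshold 0 of the 5 were called, in a comparison that called 0.152% of all tested genes, and 2 of the 5 had an unadjusted limma p under 0.05, beside 35.4% of all tested genes. For 3 of the 5 tested members (Sox2, Hnf4a and Foxa2) the lowest PGC;Ras;APC FF library exceeded the highest control, which was so for 42.7% of tested genes. Over all tested genes the log2 changes had a median of 0.26, and 3 of the 5 members (Gata4, Gata6 and Foxa2) lay below it. After median-of-ratios scaling, which centres the libraries on their typical gene, that median was -0.0027. Over each member alone an exact two-sided permutation test of 3 against 3 mice cannot give a p under 0.1, and Sox2, Hnf4a, Foxa2 and Onecut2 reached that limit (0.225 after adjustment over the 9 members).

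Replicate 6 stood apart from the other libraries in composition. The digestive genes Pgc, Clps and Pla2g1b took 6.36% of its summed FPKM, against 31.7% to 48.1% in the other 5. Control replicate 3 was the only library with Gast, the antral hormone gastrin, above 0.07 FPKM (4.41), and the only one with Eif2s3y, a Y-linked gene, above 0 (13.15 FPKM). The 8 pan-epithelial markers were higher in each PGC;Ras;APC FF library than in each control, which was so for 42.7% of tested genes. Their summed level was 2578 to 2990 FPKM without PGC and 4348 to 6725 with it. Each of the 7 tested smooth muscle markers was lower in every PGC;Ras;APC FF library than in every control, which was so for 5.47% of tested genes, and the sum over that list of 8 was 1914 to 3459 FPKM without PGC and 867 to 1280 with it. The most abundant of these were Krt19 and Krt8, keratins of simple epithelium (control means of 1041 and 1017 FPKM, 2049 and 1787 with PGC), and Actg2 and Acta2, the smooth muscle actins (732 and 579, 266 and 283).

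Markers of other cell types were less even. The 3 tested immune markers had positive log2 changes (median 0.66), with the macrophage genes Lyz2 at 50.3 ± 26.9 and 97.6 ± 57.3 FPKM and Cd68 at 9.43 ± 2.12 and 15.9 ± 5.62 (SD, n = 3 each), and the summed list overlapped between the groups (41.1 to 95.4 and 53.6 to 199.0). The 2 tested mesothelial markers were also positive (median 1.05), with Msln at 0.57 ± 0.452 and 3.37 ± 2.33 FPKM and Upk3b at 1.04 ± 1.19 and 2.23 ± 1.35. The 5 tested liver markers had a median of 0.01, with the summed list lowest in replicate 6 (59.9 FPKM) and its most abundant genes Ttr and Ahsg, both of secreted plasma proteins, overlapping between the groups. Of 9 markers of small intestine and colon 6 were below 1 FPKM in every library, and Fabp2 and Fabp1, fatty acid carriers, overlapped too. Alpi, the other tested gene of that list, was at 0.38, 0.51 and 0.31 FPKM in the controls and 1.01, 3.26 and 8.46 with PGC. Its limma adjusted p was 0.0901. In the fit of all 6 libraries no gene of these lists passed the threshold. Without replicate 6, 5 of 7 tested smooth muscle markers passed as lower, where 106 of 11600 tested genes did. Of 6 tested pancreatic markers 1 was also lower. In that fit 2 of 6 tested pan-epithelial and 1 of 5 tested liver markers were higher, beside 7.17% of all tested genes. No tested immune, mesothelial or intestinal marker of these lists passed there. Whether tissue makeup differed between the groups, and how far that would enter the values of the identity factors, was not tested.

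The promoters of the 2 tested members of largest change, Hnf4a and Sox2, are shown because these 2 genes had the largest log2 changes in the fit of the deposited FPKM. They come from RefSeq on GRCm38.p6, plus strand, written 5′ to 3′, and lie within the 250 bases before an annotated RefSeq start. Capitals mark the word AGATAA, a sequence that GATA factors can bind. Hnf4a is transcribed from 2 promoters about which gene-level values say nothing, and the upstream one, known from stomach and pancreas, is at chr2:163506607-163506810. It holds the first 204 of those 250 bases and ends just inside the first exon of GENCODE release M21, which begins before the RefSeq start. The Sox2 window is chr3:34649745-34649994.
Hnf4a: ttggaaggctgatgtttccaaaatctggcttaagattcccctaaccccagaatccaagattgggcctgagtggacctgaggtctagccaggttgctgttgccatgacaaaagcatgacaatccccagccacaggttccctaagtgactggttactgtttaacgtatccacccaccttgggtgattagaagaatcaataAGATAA
Sox2: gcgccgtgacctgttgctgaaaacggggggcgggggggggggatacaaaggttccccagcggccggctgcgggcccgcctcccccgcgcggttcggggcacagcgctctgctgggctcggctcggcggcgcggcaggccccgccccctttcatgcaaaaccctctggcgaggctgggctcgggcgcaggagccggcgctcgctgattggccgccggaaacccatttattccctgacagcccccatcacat

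Of the 9 members 5 had a promoter entry (Cdx2, Sox2, Foxa2, Hnf4a and Pdx1), with 8 starts between them. In the 250 bases before each start, on either strand, AGATAA occurred at 2 of the 8, once each for Hnf4a and Foxa2, and at 9.99% of the 32851 promoters in the table. The word CTTTGA, the core bound by TCF factors of the Wnt pathway, occurred at 0 of the 8 and at 13.8% of all promoters. The word TTTATG, which CDX factors can bind, occurred at 0 of the 8 and at 10.8% of all. The Sox2 window was the richest of the 8 in G and C, at 72.0%, and the upstream Hnf4a window had 51.2% over its 250 bases. These are matches of letters in short windows, not binding sites.

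Gata4, a zinc finger factor that keeps the corpus epithelium columnar, was the most abundant of the 9 in every library (chromosome 14, 63198922 to 63271692, minus strand, GRCm38). Its level was 66.5, 72.9 and 74.8 FPKM in control replicates 1 to 3 and 84.2, 99.7 and 65.3 in replicates 4 to 6. Replicates 4 and 5 lay above the controls and replicate 6 below them, so the groups overlapped. The means were 71.4 ± 4.35 and 83.0 ± 17.2 FPKM (SD, n = 3 each), a log2 change of 0.20 ± 0.18 (SE) with a 95% interval of -0.22 to 0.61 and a limma adjusted p of 0.421. After median-of-ratios scaling the change was -0.11, so its sign depended on the scaling. Gata4 ranked 636th to 1263rd of the 18988 rows, and its lowest rank was in replicate 6.

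Gata6, its paralogue in endoderm (chromosome 18, 11052064 to 11085635, plus strand), was the second most abundant in 4 of the 6 libraries, after Gata4, and Hnf4a took that place in replicates 5 and 6. It was at 34.2, 38.7 and 32.2 FPKM in the controls and at 35.6, 37.9 and 26.8 in replicates 4 to 6. Replicate 6 was again the lowest library and the other 5 were intermixed. The log2 change was -0.08 ± 0.17 (95% interval -0.46 to 0.31, limma adjusted p = 0.74). Gata6 was therefore the 1 tested member whose mean was lower with PGC, 35.0 ± 3.35 against 33.4 ± 5.90 FPKM, and without replicate 6 its log2 change turned to 0.07.

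The level of Gata4 relative to Gata6 differed a little between the groups. It was 1.95, 1.88 and 2.32 in the controls and 2.36, 2.63 and 2.44 in replicates 4 to 6. Every PGC;Ras;APC FF mouse was above every control, with replicates 3 and 4 close to each other. The exact two-sided permutation p was 0.1, the smallest possible, and 0.2 after adjustment over 6 ratios between members that were chosen after the values were seen. Gata5, the third endodermal GATA factor and no member, was at 18.9, 18.7 and 14.7 FPKM in the controls and at 22.2, 24.1 and 29.2 in replicates 4 to 6 (log2 change 0.50 ± 0.16, limma adjusted p = 0.0953). On the FPKM scale Gata5 was highest in replicate 6, where Gata4 and Gata6 were lowest. After median-of-ratios scaling the log2 changes were 0.21 for Gata5, -0.11 for Gata4 and -0.38 for Gata6.

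Foxa2, a forkhead factor that opens chromatin in endoderm (chromosome 2, 148042877 to 148046969, minus strand), differed little. It was at 26.6, 26.3 and 23.0 FPKM in the controls and at 28.4, 30.9 and 28.2 in replicates 4 to 6, so that the ranges were separate but close, with 26.6 and 28.2 as the nearest values. The log2 change was 0.20 ± 0.12 (95% interval -0.09 to 0.49, limma adjusted p = 0.263). After median-of-ratios scaling it was -0.10. Its relatives, no members, had larger values on the same scale. Foxa1 was at 47.6 ± 7.65 and 62.2 ± 7.40 FPKM (log2 change 0.39 ± 0.17, limma adjusted p = 0.143), and Foxa3 had a log2 change of 0.35 ± 0.15 (0.142). After median-of-ratios scaling these were 0.08 and 0.05.

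Hnf4a, a nuclear receptor of gastric and intestinal epithelium (chromosome 2, 163506808 to 163572910, plus strand), had the lowest adjusted p of the members. It was at 24.0, 30.3 and 26.3 FPKM in control replicates 1 to 3 and at 33.2, 40.1 and 40.8 in replicates 4 to 6. The groups did not overlap, and unlike for Sox2 the level in replicate 6 was close to that in replicate 5. The log2 change was 0.49 ± 0.15 (95% interval 0.14 to 0.83), which is 0.23 above the median of all tested genes, with a limma adjusted p of 0.0918. Without replicate 6 the change was 0.43 (limma adjusted p = 0.0865), and after median-of-ratios scaling 0.18 (0.384).

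Hnf4a therefore stood higher relative to Gata6 in each mouse with PGC. The ratio of their FPKM was 0.70, 0.78 and 0.82 in the controls and 0.93, 1.06 and 1.52 in replicates 4 to 6 (exact two-sided permutation p = 0.1, adjusted over 6 ratios 0.2). Relative to Foxa2 it was 0.90, 1.15 and 1.14 in controls and 1.17, 1.30 and 1.45 with PGC, with the groups nearly touching. Relative to Gata4 it was 0.36, 0.42 and 0.35 in controls and 0.39, 0.40 and 0.62 with PGC, and the groups overlapped. The exact two-sided permutation p for that ratio was 0.3. Hnf4g, the intestinal paralogue of Hnf4a, was at 0.59 to 1.33 FPKM in the 6 libraries with the groups intermixed, and lay below the filter.

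**Figure D1:**
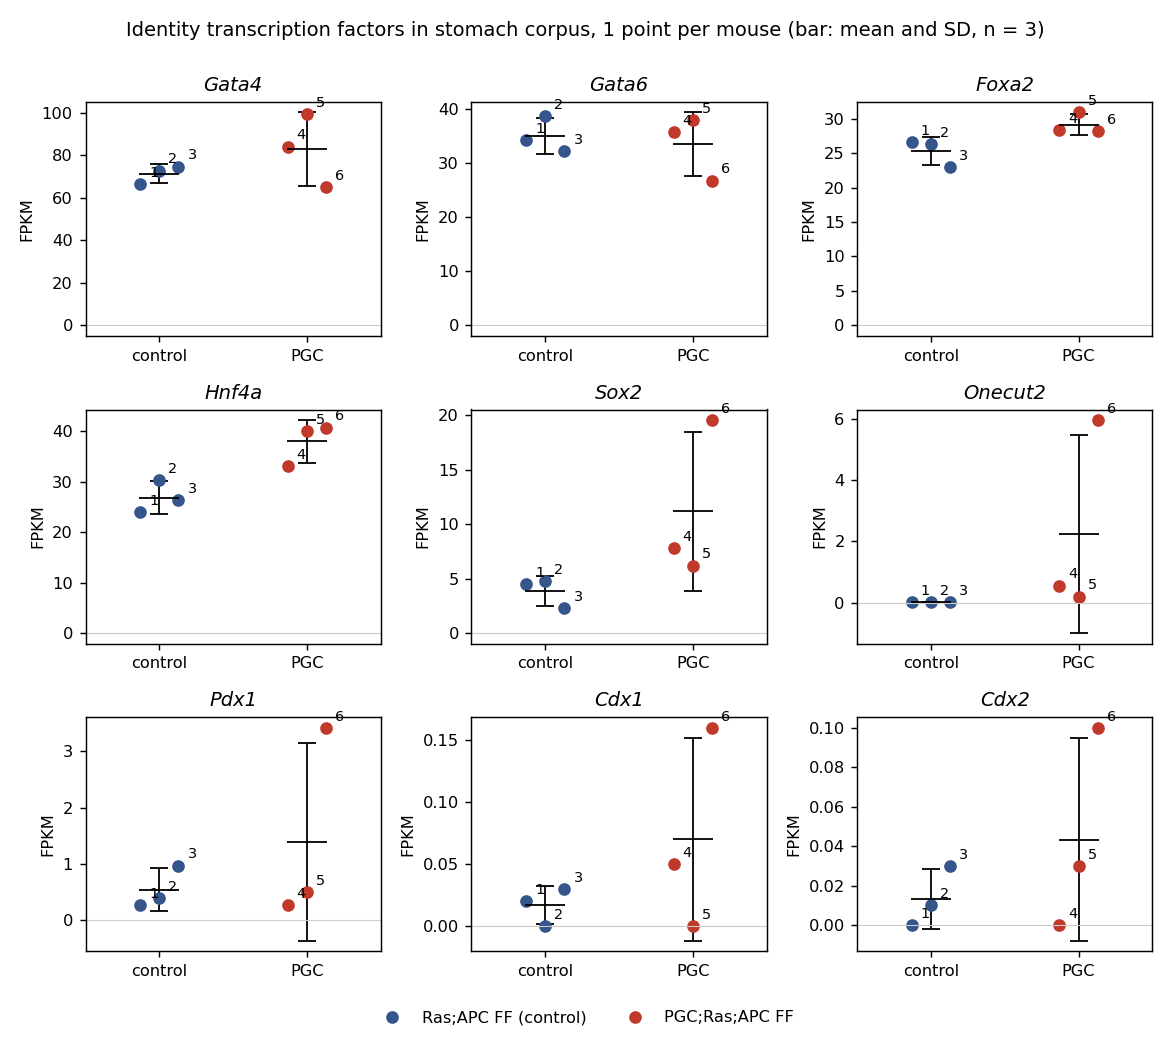
FPKM (vertical axes, from about 0, a scale of its own for each gene) of the 9 factors in each mouse, with points numbered by replicate, the mean as a horizontal bar and the SD as error bars (n = 3). Gata4 and Gata6 overlap between the groups. Every mouse with PGC lies above every control for Foxa2, Hnf4a and Sox2, as for 42.7% of tested genes. The same is so for Onecut2, as for 13.9% of rows below the filter. Hnf4a, Sox2, Onecut2, Pdx1, Cdx1 and Cdx2 have their highest value in replicate 6.

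Sox2, an HMG-box factor of foregut epithelium and its stem cells (chromosome 3, 34650405 to 34652461, plus strand), had the largest log2 change of the tested members. It was at 4.51, 4.74 and 2.32 FPKM in the controls and at 7.79, 6.18 and 19.6 in replicates 4 to 6. Each PGC;Ras;APC FF library was above each control, replicate 6 was at 5.07 times the control mean, and replicates 4 and 5 were at 2.02 and 1.60 times it. The log2 change was 1.21 ± 0.40 (95% interval 0.29 to 2.13, limma adjusted p = 0.0973), and 0.75 without replicate 6 (limma adjusted p = 0.0851). Leaving out control replicate 3, the lowest library, gave 0.96 (limma adjusted p = 0.208). After median-of-ratios scaling the change was 0.94 (limma adjusted p = 0.174). Sox21, a related SOX factor that is no member, was at 11.9 to 18.6 FPKM in the controls and 12.8 to 20.3 with PGC (log2 change 0.02 ± 0.22, limma adjusted p = 0.941).

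Sox2 also marks the squamous forestomach, so markers of that region were read beside it. Trp63, the master factor of squamous basal cells, did not exceed 0.01 FPKM in any library, and Krt5 did not exceed 0.10. The squamous list as a whole summed to 0.84 to 1.54 FPKM in the controls and 4.89 to 15.8 with PGC, and 9 of its 11 genes were below 1 FPKM in every library. Krt13 was the 1 tested gene of that list, at 0.83, 0.24 and 0.16 FPKM in the controls and 2.34, 3.01 and 4.63 with PGC (limma adjusted p = 0.085). Ivl, chosen after its values were seen, was at up to 0.01 FPKM in the controls and at 1.14, 0.55 and 8.5 in replicates 4, 5 and 6. The part of these genes in the Sox2 values was not tested.

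Among 11450 other tested genes, the 3 whose control-centred log2 values over the 6 libraries lay nearest to those of Sox2 were Ehf, Epcam and Plekhs1, at Euclidean distances of 0.19, 0.40 and 0.40. Ehf, an ETS factor of epithelium, was at 8.26, 8.44 and 5.29 FPKM in the controls and 13.6, 11.2 and 32.6 in replicates 4 to 6. Epcam, an adhesion protein of simple epithelium, was at 68.6, 66.6 and 46.3 and at 104.1, 111.7 and 293.2. They were picked for their likeness to Sox2, so the shared order, with replicate 3 lowest and replicate 6 highest, follows from the choice. For Hnf4a the nearest genes were Rnaseh1, Jup and Tamm41 (distances 0.11, 0.13 and 0.16). For Foxa2 they were Yars, Bcl7a and Mapkap1 (0.076, 0.085 and 0.11).

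**Figure D2:**
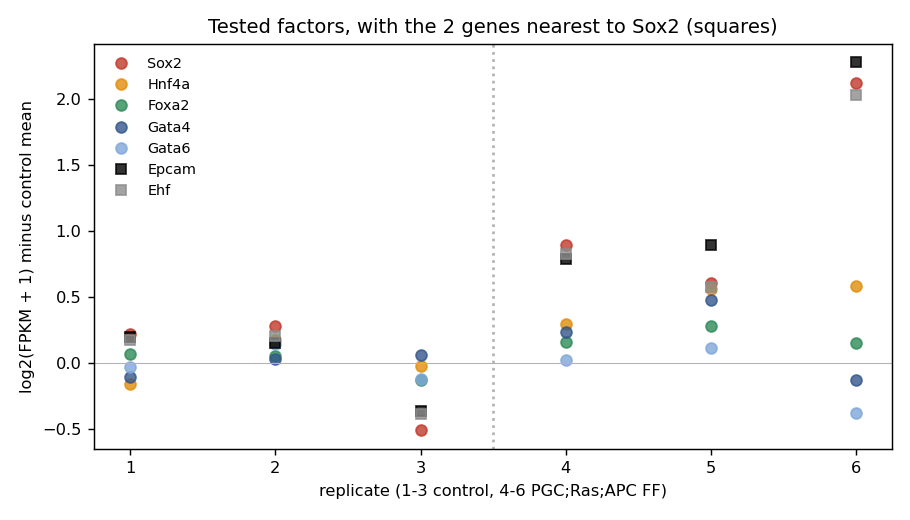
Each point is log2(FPKM + 1) minus the control mean (vertical axis) for the 5 tested factors (circles) and for Ehf and Epcam (squares) in each library (horizontal axis, replicates 1 to 3 control and 4 to 6 PGC;Ras;APC FF). Ehf and Epcam were picked as the nearest profiles to Sox2, so their closeness follows from the choice, and Gata6 and Gata4 are below their control means in replicate 6.

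Onecut2 (chromosome 18, 64340020 to 64400987, plus strand) was near 0 in the controls and higher in each mouse with PGC. It was at 0.02, 0.02 and 0.03 FPKM in control replicates 1 to 3 and at 0.56, 0.20 and 5.96 in replicates 4, 5 and 6. The lowest value with PGC was above the highest control, which was so for 13.9% of rows that were above 0 somewhere but below the filter. The deposited values have 2 decimals, so a ratio to 0.02 is coarse, and only replicate 6 exceeded 1 FPKM. The difference on the log2 scale was 1.20 with all libraries and 0.42 without replicate 6, and with no filter, when the gene could be fitted, its limma adjusted p was 0.263.

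Its paralogue Onecut3, on the list of other intestinal factors and named after its values were seen, had the same order of libraries at the top. It was at 0.02, 0.01 and 0 FPKM in the controls and at 0.32, 0.29 and 4.30 in replicates 4 to 6. Onecut1, the third of the family, stayed at 0 to 0.05 FPKM in the 6 libraries. Both Onecut2 and Onecut3 were thus highest in replicate 6 and above every control in replicates 4 and 5.

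Pdx1, the homeodomain factor of antrum, duodenum and pancreas (chromosome 5, 147269959 to 147275848, plus strand), was low and uneven. It was at 0.26, 0.39 and 0.97 FPKM in the controls and at 0.26, 0.50 and 3.42 in replicates 4 to 6. Control replicate 3 was above replicates 4 and 5, so the groups overlapped, and the means of 0.54 ± 0.378 and 1.39 ± 1.76 FPKM (SD, n = 3 each) differed by less than the spread with PGC. Without replicate 6 the log2 difference was -0.14.

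The antral markers separate the 2 libraries with most Pdx1. In control replicate 3, Gast was at 4.41 FPKM and Nkx6-3, an antral homeobox factor, at 1.90. In replicate 6 they were at 0.07 and 0.16 FPKM while Pdx1 was at 3.42, against 0.97 in replicate 3. In the other 4 libraries Gast did not exceed 0.07 and Nkx6-3 did not exceed 0.10 FPKM. Pancreatic markers were read too: Cpa1 did not exceed 0.02 FPKM and Prss2 did not exceed 0.04 in any library. Ptf1a, an acinar factor, was at 0.73 to 2.93 FPKM and lowest in replicate 6. The most abundant of that list, Amy2a5 and Cela1, both for digestive enzymes, had log2 changes of opposite sign. Amy2a5 was at 63.9, 29.7 and 193 FPKM in the controls and at 5.80, 11.4 and 2.18 in replicates 4 to 6 (limma adjusted p = 0.085). Cela1 was at 19.3, 18.1 and 29.0 and at 30.3, 30.7 and 80.4 (limma adjusted p = 0.127).

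**Figure D3:**
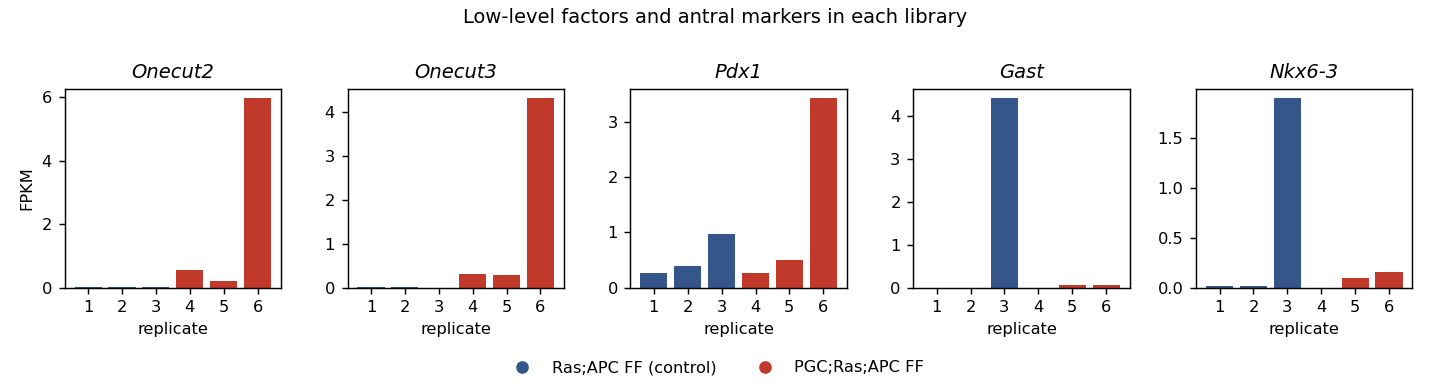
FPKM (vertical axes, from 0, each gene on its own scale) of Onecut2, Onecut3, Pdx1, Gast and Nkx6-3 in each of the 6 libraries (bars). Onecut2, Onecut3 and Pdx1 are highest in replicate 6, while Gast and Nkx6-3 are highest in control replicate 3.

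Cdx1 (chromosome 18, 61018862 to 61036199, minus strand) and Cdx2 (chromosome 5, 147300805 to 147307270, minus strand), the intestinal master factors, stood near 0 in both genotypes. Cdx1 was at 0.02, 0 and 0.03 FPKM in the controls and at 0.05, 0 and 0.16 in replicates 4 to 6. Cdx2 was at 0, 0.01 and 0.03 FPKM in the controls and at 0, 0.03 and 0.10. Replicate 6 was the highest library for both, and elsewhere the groups were intermixed. The number of reads behind these values is not known, so no counting error can be set beside their differences. Cdx2 lies 24956 bases from Pdx1 on the same chromosome, and in replicate 6 the pair stood at 0.10 and 3.42 FPKM.

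In order of level, Gata4 came first in all 6 libraries, and Gata6, Hnf4a and Foxa2 followed within a range of 23.0 to 40.8 FPKM in which neighbours often differed by less than their SD. Sox2 came next in every library, at 2.32 to 19.6 FPKM. Pdx1 followed in 4 libraries, the 3 controls and replicate 5, and Onecut2 was above it in replicates 4 and 6. Cdx1 and Cdx2 were below all of the others in the libraries with PGC, and at a level like that of Onecut2 in the controls.

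The other transcription factors of stomach and intestine, from lists fixed by name, were read next. Of 20 stomach factors 17 were tested and 0 passed (limma, 5 with an unadjusted p under 0.05, beside 35.4% of all tested genes). Their log2 changes were 13 positive and 4 negative with a median of 0.35, beside 80.6% positive and 0.26 for all tested genes. The most abundant were Xbp1, a secretory cell factor, at 180 ± 15.0 and 207 ± 3.36 FPKM, and Foxq1, a mucous cell factor, at 86.4 ± 20.3 and 115 ± 27.3. The lowest changes, named after their values were seen, were those of Esrrg, a parietal cell factor, and Pitx1, with log2 changes of -1.01 and -0.70 (limma adjusted p = 0.18 and 0.0861). Of 18 intestinal factors 14 had a row, 6 were tested and 0 passed (limma, 2 with an unadjusted p under 0.05), with a median of 0.13. Elf3, an epithelial ETS factor, was at 159 ± 7.95 and 237 ± 73.7 FPKM and Klf4, a differentiation factor, at 144 ± 25.9 and 144 ± 23.7. Isx, an intestinal homeobox factor, was at 0 in 5 libraries and 0.04 FPKM in replicate 6.

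**Figure D4:**
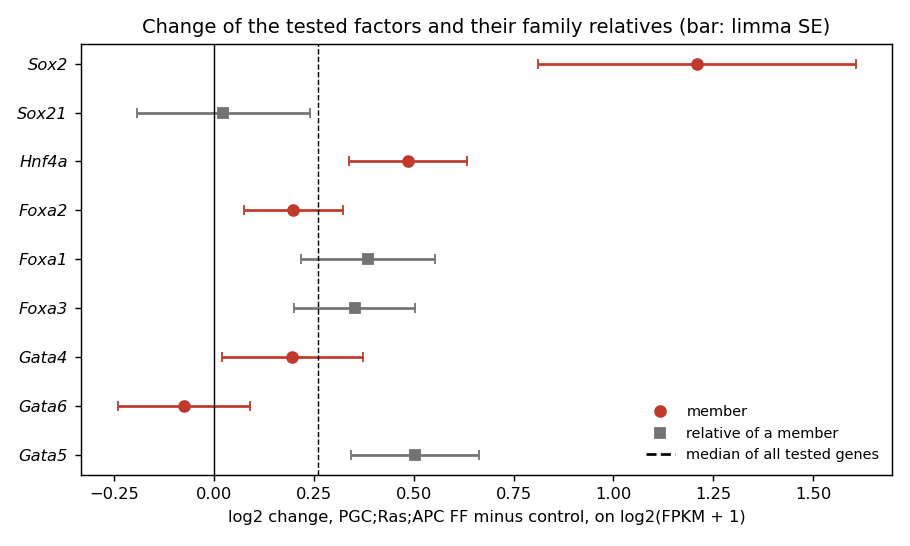
The log2 change with its limma SE (horizontal axis, PGC;Ras;APC FF minus control on log2(FPKM + 1)) of the 5 tested members (circles) and of 4 tested relatives (squares), with a dashed line at 0.26, the median over all genes tested. Sox2 lies at 1.21 and its relative Sox21 at 0.02, and Gata6 lies at -0.08 with Gata5 at 0.50.

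Products of intestinal and gastric epithelium were read beside the factors. Of 30 intestinal products 29 had a row, 10 of them were below 1 FPKM in every library, and 16 were tested, with 8 positive and 8 negative log2 changes and a median of 0.04. None passed (limma, 5 with an unadjusted p under 0.05, beside 35.4% of all tested genes). Over all tested genes 80.6% of log2 changes were positive and the median was 0.26. Apoa1, an apolipoprotein, was at 1581 ± 303 and 933 ± 495 FPKM, and Lgals4, a lectin of gut epithelium, at 136 ± 23.0 and 400 ± 204. Without replicate 6, 4 of 15 tested products rose (Vil1, Gpa33, Lgals4 and Krt20, limma adjusted p = 0.0296 to 0.0393, with log2 changes of 0.78, 1.70, 1.06 and 1.74), where 7.17% of all tested genes rose, and 0 fell. That fit also put 2 of 6 tested pan-epithelial markers higher (Epcam and Krt19). Without replicate 5, 3 intestinal products rose, in a fit that called 413 genes higher. The numbers tested in that fit were not kept, so no share can be set beside these counts. Without any 1 of replicates 1 to 4 the count of intestinal products that rose was 0. Those fits called 0 to 2 genes higher in all, so their counts say nothing on the products. Of the 16 tested products 5 were above every control in each mouse with PGC and 2 below, beside 42.7% and 5.47% of tested genes. The names that follow were chosen after their values were seen. Muc2, the goblet cell mucin, did not exceed 0.12 FPKM, and the brush border enzyme gene Sis was at 0 in the controls and at most at 0.08. Cdh17 was at 0, 0.02 and 0.02 FPKM in the controls and 0.13, 0.04 and 1.06 in replicates 4 to 6. Mttp was at 0.35 to 0.57 and 0.58 to 1.48. Alpi, also on this list, was above every control in each mouse with PGC, at the values given above. Fcgbp, a mucus protein named after its values were seen, was at 0.20 to 0.52 FPKM in 5 libraries and 19.2 in replicate 6.

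Of 18 gastric products with a row all were tested and 0 passed (limma, 6 with an unadjusted p under 0.05, beside 35.4% of all tested genes). Their log2 changes were 9 positive and 9 negative with a median of 0.02, beside 80.6% positive and 0.26 for all tested genes. Pgc, the pepsinogen C zymogen, was at 168346 ± 27006 FPKM in the controls and 60757 ± 38953 with PGC. Tff1, the pit cell trefoil peptide, was at 49169 ± 17778 and 58044 ± 3596. Without replicate 6, 1 of the 18 rose (A4gnt, a mucin glycosyltransferase, log2 change 0.83, limma adjusted p = 0.0412), beside the 7.17% of all tested genes, and none of the members passed. The count was 0 when any 1 of replicates 1 to 5 was left out. Over all genes those fits called 0 to 2 higher without 1 of replicates 1 to 4, and 413 without replicate 5.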

How the data were processed

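RNA of stomach corpus was measured in 6 mice, 3 per genotype. The authors deposited FPKM with 2 decimals, made with STAR and featureCounts on mm10 per the submitters' processing notes. Not given in the sources used here are versions, annotation, strandedness and how FPKM were derived. Read totals are unknown, so counting intervals could not be computed. FPKM summed to between 664821 and 804774 per library.

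FPKM are not counts, so limma 3.58.1 (R 4.3.3) was run on log2(FPKM + 1) (genotype as the 1 term, filter and threshold as in the report, eBayes with trend, two-sided, 4 residual degrees of freedom). The fit was tested on simulated data. Groups share no replicate number, so nothing was paired. No batch is given in the labels. Members, gene lists and tests were chosen with earlier results of these data known. Text named all members, for each list genes past the threshold or else its 2 most abundant tested genes, and the 3 nearest profiles of the 3 tested members of largest change. Other names were chosen after their values were seen. Coordinates are GENCODE M21 on GRCm38, the assembly of mm10, matched by symbol (9 of 9). Protein identities between paralogues were not analysed here. Alternatives were another pseudocount, no filter, 3 scalings, eBayes without trend and each library left out.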

Additional observations from a re-analysis of the deposited data

How the results depend on the processing

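No member passed the threshold under any of 12 other settings (pseudocount, filter, scaling, variance prior and each library left out). The same held with the filter kept over all 6 libraries while replicate 3 or 6 was left out, 2 settings chosen after seeing the data. Cdx1, Cdx2, Pdx1 and Onecut2 entered the linear model only with no filter (limma adjusted p = 0.263 to 0.578). Of 10 settings that can move a log2 change (pseudocount, 3 scalings and each library left out), Sox2, Hnf4a, Onecut2, Cdx1 and Cdx2 kept a positive change in 10, the Cdx genes at no more than 0.16 and 0.10 FPKM. The sign of Gata4 reversed with median-of-ratios scaling (-0.11), quantile normalization (-0.17) and a total without the 50 most abundant genes (-0.17). Foxa2 reversed under the same settings (-0.10, -0.14 and -0.16). Gata6 ranged from -0.172 to 0.0717 when single libraries were left out, and was 0.0717 without replicate 6 under either filter. Division by Epcam was tried after its profile was seen to lie near that of Sox2. It scaled each library by its Epcam level, which itself had a log2 change of 1.32. The values therefore carry the denominator and are no result on the members. They were 0.07 for Sox2, -1.12 for Gata4, -1.08 for Foxa2, -0.81 for Hnf4a and -1.36 for Gata6. Gata6 was the 1 member that the division put past the threshold.

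Those 3 scalings in that order also turned the median over all genes tested to -0.0027, -0.0248 and -0.0519, that of the intestinal factors to -0.0756, -0.10 and -0.11 and that of the intestinal products to -0.21, -0.22 and -0.26. The median of gastric products became -0.29 by median-of-ratios and -0.35 by the reduced total, and the latter gave -0.0036 for stomach factors. Leaving out single libraries gave medians of -0.0208 to 0.61 for intestinal products, the highest without replicate 3, and -0.0333 to 0.31 for gastric products, the highest without replicate 6.

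Over all genes 13 were higher and 5 lower. A pseudocount of 0.1 gave 29 higher and no filter 3, and each of the 3 scalings gave 10 lower. Leaving out single libraries gave 0 to 832 higher and 0 to 106 lower, with 0 without any 1 control. With the filter kept over all 6 libraries there were 962 and 114 without replicate 6, and 0 and 1 without replicate 3. The causes were not tested. No paired analysis was possible because the groups share no replicate number.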
